A study of Mus musculus with 2 samples.

Results

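Immediate-early genes are transcribed within minutes of a stimulus, without new protein synthesis, and the 10 genes described here are Fos, Fosb, Jun, Junb, Egr1, Atf3, Dusp1, Nr4a1, Ier2 and Gadd45b. They were found by gene symbol, and each of the 10 symbols occurred once among the 40879 gene symbols of each count file. The list was selected on the same contrast that is described below, in which Gadd45b and other members were known to be lower in the library labelled ERAP1+/-, so the differences between the libraries are given as a description and not as a test.

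Growth factors, cell contact, calcium and tissue stress reach these genes through MAP kinases, which activate factors such as SRF, ELK and CREB already bound to their promoters. Fos and Jun proteins pair through leucine zippers to form AP-1, a transcription factor of proliferation, wound repair and inflammation, while Egr1 and Nr4a1 bind DNA as a zinc finger protein and an orphan nuclear receptor. In the gut, this response accompanies epithelial injury and contact with growth factors.

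The WT library and the library labelled ERAP1+/- each came from the intestine of mice that received neither dextran sulfate sodium nor sulfasalazine, with RNA of 3 mice pooled per genotype. The mice had a C57BL/6 background, described by the study as germ-free and held in a specific pathogen-free facility. They were 8 weeks old when assigned to groups. By the study's methods, untreated mice then had regular water for some weeks before tissue was taken, so they were older at sampling. By the study's methods, the ERAP1+/- mice carried 1 allele derived from a tm1a targeting construct with loxP sites around exons 6 and 7 of Erap1, after crossing to a Cre strain whose promoter is not given in the sources used here. Libraries were made with the QuantSeq FWD kit, which reads the 3' ends of polyadenylated RNA. The WT library held 8114826 reads and the library labelled ERAP1+/- 8907515, and mitochondrial and ribosomal RNA took 18.0% and 16.7% of them. Erap1 itself had 229 reads in WT and 2 in the library labelled ERAP1+/-, which is 0.730% of the WT level (95% counting interval 0.0878% to 2.67%). That goes against a label of mice with 1 intact allele, so "ERAP1+/-" is used below only as the label of that library, and each direction given is relative to it. Reads from the 3' end do not cover exons 6 and 7, so the deletion itself was not read.

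There was 1 library per genotype, so the spread between mice is not known, no p-value is given, and every interval covers counting error only. Values are given as reads, as CPM (reads scaled to a common library size) after trimmed mean of M values (TMM) normalization, or as differences in log2(CPM + 1), always ERAP1+/- minus WT. A gene was called different where this difference passed 2-fold and the higher of its levels was 4 or more on the log2 scale, which corresponds to 15 CPM. Levels are compared between libraries and not between genes.

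All 10 genes were lower in the library labelled ERAP1+/-, and 5 of them, Fos, Fosb, Egr1, Atf3 and Gadd45b, were lower by more than 2-fold. Of all 8013 genes past the level of 4, 3.96% were lower by more than 2-fold and 1.39% were higher, and none of the 10 genes was higher. Every one of the 10 genes reached the level of 4 in the WT library. Their median log2 difference was -1.06, beside -0.03 over the 8013 genes, of which 52.7% had a negative difference. Together the 10 genes took 7412 WT and 4664 ERAP1+/- reads, or 954 and 501 CPM. The ratio of these sums was 0.526 (95% counting interval 0.507 to 0.545).

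The scaling mattered at the threshold. With scaling by the total count alone, 4 members passed 2-fold, against 3.08% of genes that were then lower by that much, because Fos no longer passed it. Among all genes called, 74.1% were lower with TMM scaling and 59.9% with the total count.

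**Figure D1:**
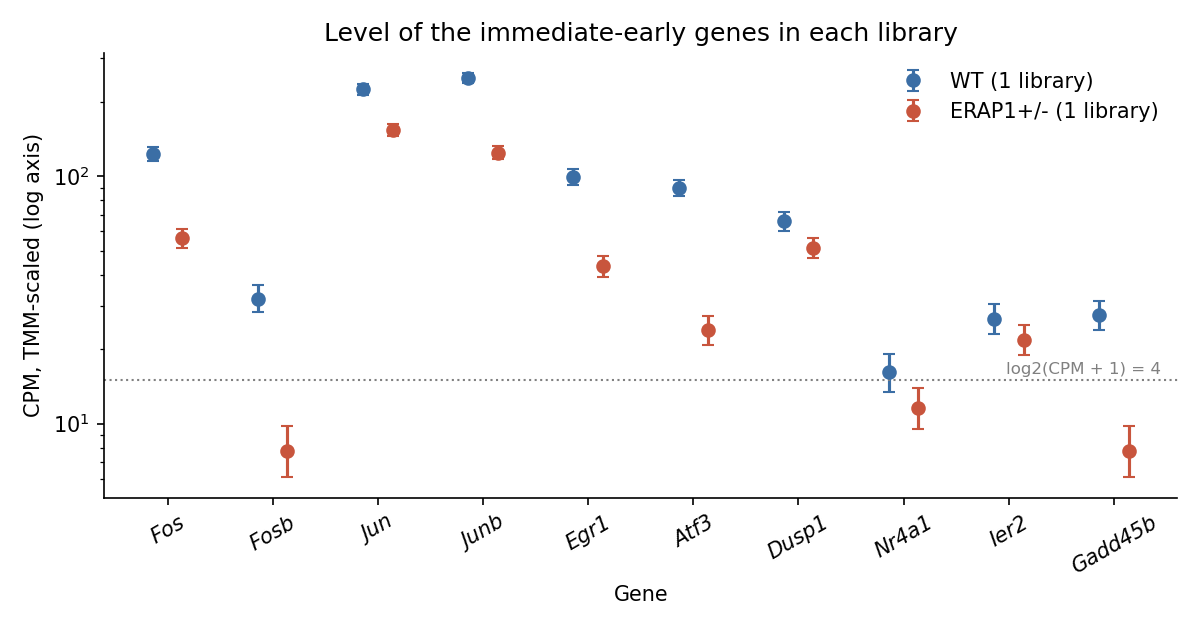
Level of each of the 10 genes in the WT library (blue) and the library labelled ERAP1+/- (red), in TMM-scaled CPM on a log axis, with bars for exact 95% Poisson intervals and a dotted line at 15 CPM. Each red point lies below its blue partner, with the widest gaps at Fosb (4.14-fold), Atf3 (3.75-fold) and Gadd45b (3.54-fold).

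The promoter windows of 4 called members and of Dusp1 are shown because they differ in the elements through which CREB/ATF factors and the basal machinery are known to act. RefSeq promoters on GRCm38.p6 were found for 8 of the 10 genes, and there was no entry for Egr1 and Ier2. Each line gives the 150 bases before the RefSeq start, 5′ to 3′ on the gene's strand, at chr12:85473740-85473889 (plus strand), chr7:19310046-19310195 (minus), chr1:191183334-191183483 (minus), chr10:80929941-80930090 (plus) and chr17:26508473-26508622 (minus). Capitals mark TGACGTCA (the cAMP response element, CRE), its 6-base core TGACGT on either strand, and TATAAA.
Fos: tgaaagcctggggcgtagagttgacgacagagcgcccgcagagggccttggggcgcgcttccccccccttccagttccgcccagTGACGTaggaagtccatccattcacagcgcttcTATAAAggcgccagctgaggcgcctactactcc
Fosb: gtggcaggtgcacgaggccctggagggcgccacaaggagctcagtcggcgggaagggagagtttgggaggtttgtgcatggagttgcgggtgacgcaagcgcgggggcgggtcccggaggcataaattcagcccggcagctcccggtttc
Atf3: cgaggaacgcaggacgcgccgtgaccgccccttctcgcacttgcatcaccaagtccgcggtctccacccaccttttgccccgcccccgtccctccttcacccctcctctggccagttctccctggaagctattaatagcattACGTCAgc
Gadd45b: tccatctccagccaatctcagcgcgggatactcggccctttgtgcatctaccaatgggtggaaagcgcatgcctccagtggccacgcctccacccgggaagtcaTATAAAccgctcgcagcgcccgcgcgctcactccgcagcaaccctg
Dusp1: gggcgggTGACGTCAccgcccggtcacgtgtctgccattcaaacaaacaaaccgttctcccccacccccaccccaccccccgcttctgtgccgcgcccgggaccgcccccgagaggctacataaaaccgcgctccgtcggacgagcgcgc

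In the 250 bases before the start, both strands were searched. The full CRE was present in Dusp1 alone, 143 to 136 bases before the start, against 1.55% of 32851 promoters of the same length. Its core TGACGT, which overlaps the CRE, was present in 3 of the 8, Fos, Atf3 and Dusp1, against 6.47% of all promoters. In Fos it lay 66 to 61 bases and in Atf3 8 to 3 bases before the start. TATAAA was present in Fos (33 to 28 bases before the start) and Gadd45b (46 to 41 bases), against 12.4% of all promoters. None of the 8 windows of 250 bases held TGANTCA, the AP-1 site, or a CArG box, the SRF site, which 6.75% and 1.47% of all promoters held. Bases farther from the start, and the promoters of Egr1 and Ier2, were not searched, so such sites may lie there. Only these exact strings were searched, so variants of them within the windows were not counted, such as TGACATCA in that of Jun. A match is a string of letters and not evidence of binding.

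Among the Fos and Jun genes, Fos and Fosb were lower by more than 2-fold, and Jun and Junb were not called. Fos lies on chromosome 12 of GRCm38 (85473890 to 85477273, plus strand) and encodes the prototype partner of Jun. It had 956 WT and 522 ERAP1+/- reads, 123 and 56.1 CPM. The ratio was 0.456 (95% counting interval 0.409 to 0.508) and the log2 difference -1.12. Fosb, whose protein pairs with Jun in the same way, lies on chromosome 7 (19302696 to 19310051, minus strand). It had 249 and 72 reads, and its ratio of 0.242 (0.183 to 0.315) was the lowest of the 10. The interval of Fosb lies wholly below those of Fos, Jun and Junb, while those of Fos and Junb overlap.

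Jun (chromosome 4, 95049034 to 95052222, minus strand), which can pair with itself or with Fos proteins, had 1746 WT and 1429 ERAP1+/- reads. Its ratio was 0.684 (0.637 to 0.734), so that it was lower by less than 2-fold. Junb (chromosome 8, 84974484 to 84978718, minus strand), often a weaker activator than Jun, had 1937 and 1156 reads and a ratio of 0.499 (0.463 to 0.536). It stood just outside the threshold with a difference of -0.999 in log2(CPM + 1), the scale of the call, and Fos at -1.119 stood just inside. Junb overlaps Prdx2 on the opposite strand (1253 and 1599 reads), and Jun overlaps the antisense gene Junos (37 and 41 reads). Whether the counting used strand is not given in the sources used here, so reads of these pairs may not be fully separated.

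Atf3, a stress-induced bZIP factor that pairs with Jun proteins and can repress its targets, lies on chromosome 1 (191170296 to 191218039, minus strand). It had 696 WT and 222 ERAP1+/- reads, 89.6 and 23.9 CPM. It was 3.75-fold lower (95% counting interval 3.22 to 4.39), and its log2 difference of -1.86 was matched or passed by 1.88% of the 8013 genes. With Fos, Fosb, Jun and Junb it brought the AP-1 genes to 5584 and 3401 reads.

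Egr1, Nr4a1 and Ier2 are transcription regulators outside AP-1, and 1 of the 3 was called. Egr1 (chromosome 18, 34859823 to 34864984, plus strand), a zinc finger factor that follows ERK signalling, had 772 and 402 reads and a ratio of 0.435 (0.385 to 0.491). Nr4a1 (chromosome 15, 101254269 to 101274795, plus strand) had 125 and 108 reads, the fewest of the 10 in the WT library, and a ratio of 0.722 (0.553 to 0.941). Ier2 (chromosome 8, 84661331 to 84662852, minus strand), a small nuclear protein, had 207 and 203 reads and the ratio nearest to 1, 0.819 (0.672 to 0.999). At this depth Ier2 and Nr4a1 are the members whose lower level is least clear: scaled by the total count, their intervals were 0.733 to 1.09 and 0.603 to 1.03.

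Dusp1 and Gadd45b act on the kinases themselves. Dusp1 (chromosome 17, 26505590 to 26562128, minus strand) encodes a phosphatase that switches off p38, JNK and ERK after they have induced it. It had 511 WT and 478 ERAP1+/- reads, and its ratio was 0.781 (0.688 to 0.887). Its annotated span overlaps Ergic1 on the opposite strand, which had 294 and 487 reads. Gadd45b (chromosome 10, 80930073 to 80932204, plus strand) encodes a stress sensor that binds MAP kinase kinases and is a known NF-kB target. It had 213 WT and 72 ERAP1+/- reads, 27.4 and 7.74 CPM. It was 3.54-fold lower (2.70 to 4.69), with a log2 difference of -1.70. The study also examined Gadd45b by RT-qPCR in spleen, another tissue, and reported no significant difference between its groups.

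**Figure D2:**
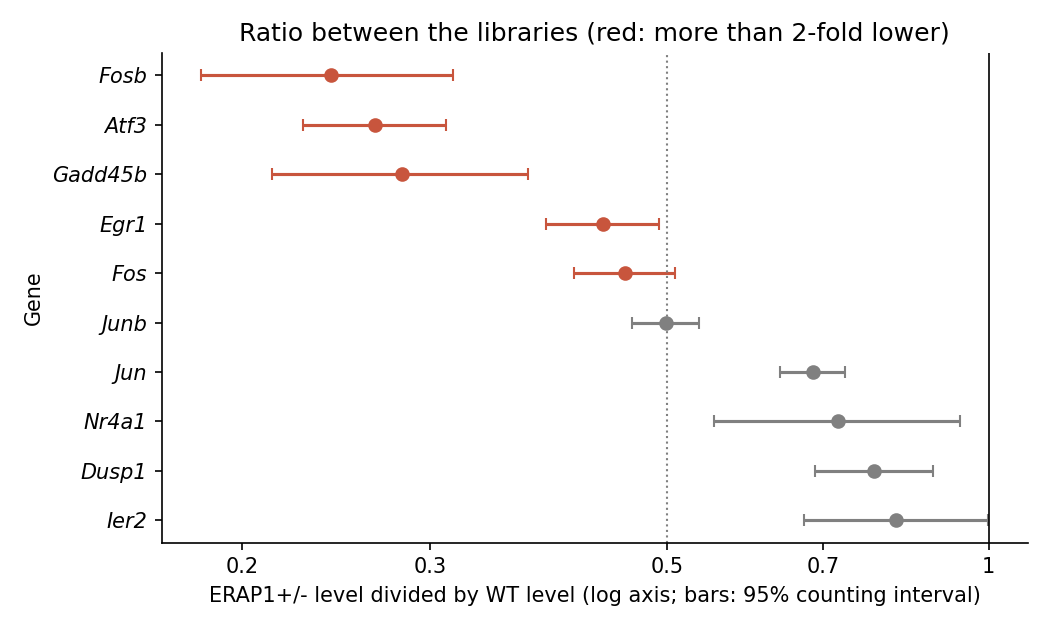
ERAP1+/- level divided by WT level for each of the 10 genes on a log axis, with exact conditional 95% counting intervals; red marks genes more than 2-fold lower, the dotted line a ratio of 0.5. Fosb, Atf3 and Gadd45b lie between 0.242 and 0.282, Egr1, Fos and Junb between 0.435 and 0.499, and Jun, Nr4a1, Dusp1 and Ier2 between 0.684 and 0.819.

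By their counting intervals, the ratios could be placed in 3 sets. This grouping was made after the values were seen, and the intervals leave out differences between mice. The intervals of Fosb, Atf3 and Gadd45b overlapped each other and lay below those of Egr1, Fos and Junb. The upper bounds of the first set reached 0.370 (Gadd45b), and the lower bound of Egr1 was 0.385. Jun, Nr4a1, Dusp1 and Ier2 made up the last set, with Jun starting at 0.637, above the upper bound of Junb at 0.536, and Nr4a1 at 0.553. Within each set the intervals of all members overlapped.

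All 10 intervals lay below 1, beside 32.4% of the 8013 genes. With the total count, 8 of the 10 did, beside 22.2% of 8043 genes.

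**Figure D3:**
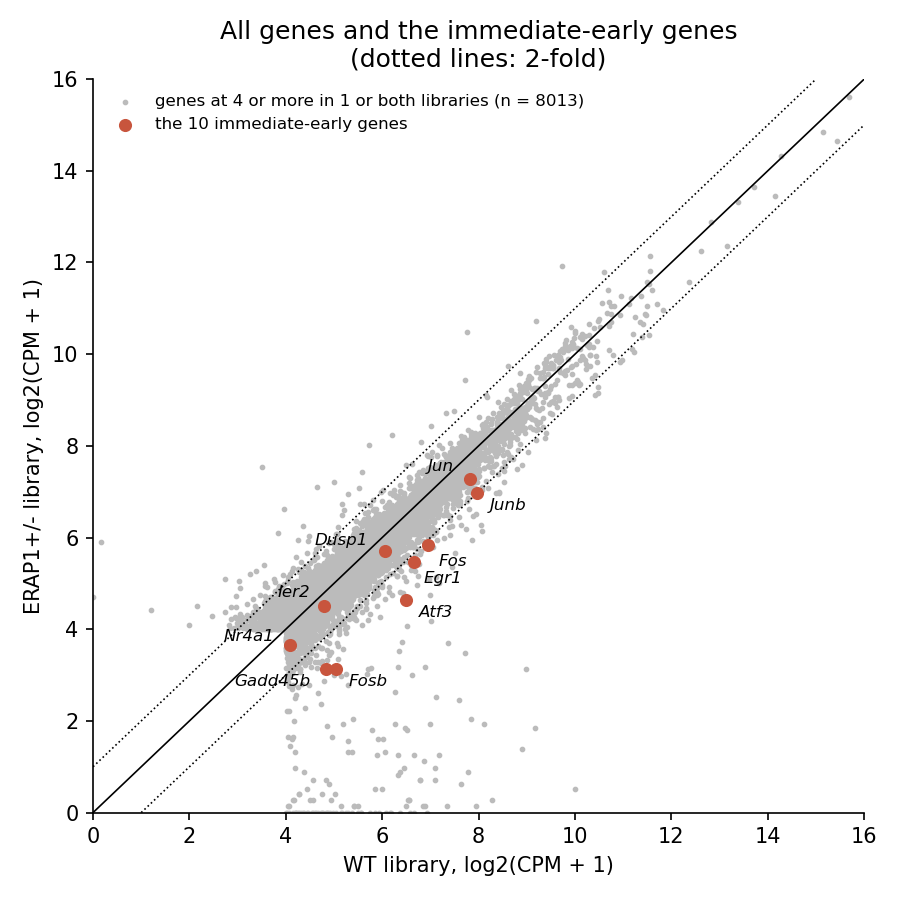
Each grey point is 1 of the 8013 genes past the level of 4, with log2(CPM + 1) of WT on the x axis and of ERAP1+/- on the y axis; red points are the 10 genes, the solid line marks equal levels and the dotted lines 2-fold. All 10 red points lie below the line of equal levels, and Fosb, Gadd45b and Atf3 lie farthest from it among the 10.

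Shares of reads within a family do not depend on the scaling between libraries. Of the reads of Fos, Fosb, Fosl1 and Fosl2, Fosb took 7.67% in the WT library (exact binomial 95% interval 6.78% to 8.64%) and 3.18% in the library labelled ERAP1+/- (2.50% to 3.99%). Fosl2, a family member with slower kinetics, took 61.0% and 73.6%. Fosl1 had 62 WT and 4 ERAP1+/- reads. Fos took 29.4% and 23.1%. In the Jun family, Jund took 49.5% and 48.4%, Jun 23.9% and 28.5%, and Junb 26.5% and 23.1%.

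Within the Egr family, the rarer genes differed more than Egr1. Egr2 had 53 WT and 3 ERAP1+/- reads (ratio 0.0473, 95% counting interval 0.00945 to 0.146), and Egr3 had 73 and 9 (ratio 0.103, 0.0453 to 0.206). Both stayed under the level of 4 and so could not be called. Egr1 thus made up 86.0% of the family's reads in WT and 97.1% in ERAP1+/-. Egr4 had no read in either library. Nr4a2, a relative of Nr4a1, had 83 and 111 reads, a ratio of 1.12 whose counting interval includes 1.

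Of the paralogs of Gadd45b, Gadd45g was also called lower and Gadd45a was not. Gadd45a, which responds mainly to p53 and DNA damage, had 218 and 226 reads (ratio 0.866, 0.716 to 1.05), and Gadd45g had 259 and 136 (ratio 0.439, 0.354 to 0.542). The interval of Gadd45g overlaps that of Gadd45b (0.213 to 0.370), and that of Gadd45a does not. The share of Gadd45b in the reads of the 3 genes was 30.9% in the WT library (27.4% to 34.5%) and 16.6% in the library labelled ERAP1+/- (13.2% to 20.4%), while that of Gadd45a was 31.6% and 52.1%. Over the 2 libraries, the genes nearest to Gadd45b by Euclidean distance in log2(CPM + 1) were Ppp1r15a (0.17), Eps8l1 (0.19), Plekhg6 (0.20), Ttc39aos1 (0.20) and Fosb (0.22). Likeness over 2 points says little, since each pair of values is shared by many genes.

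**Figure D4:**
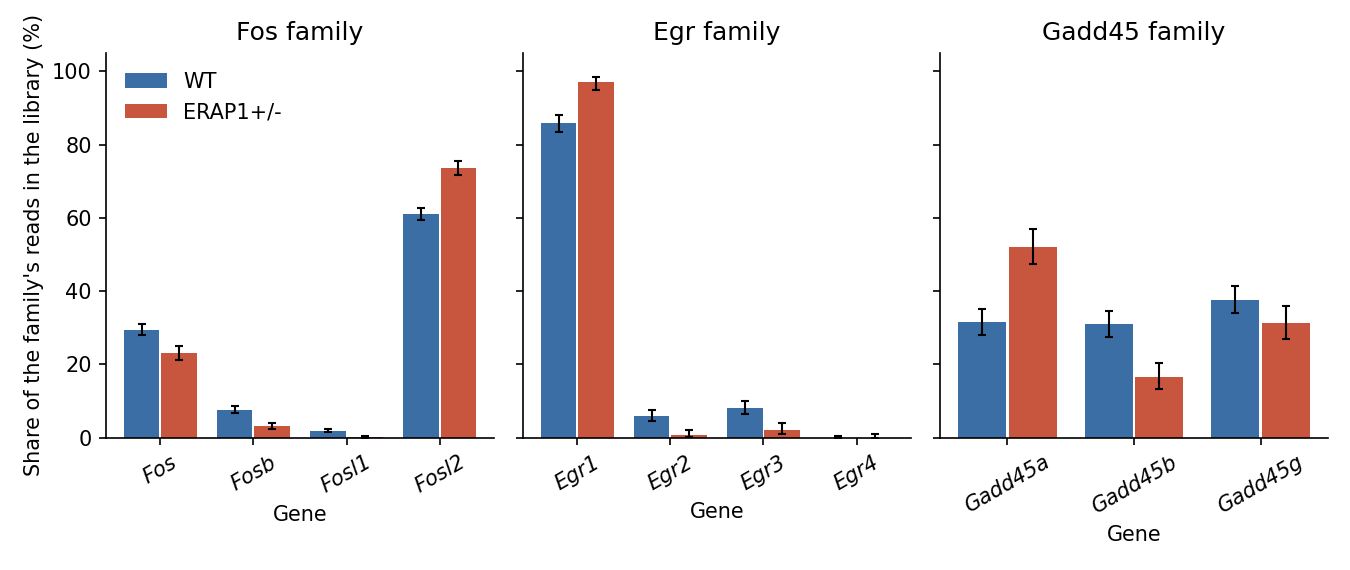
Share of each gene in the reads of its family (Fos, Egr or Gadd45), in percent, in the WT library (blue) and the library labelled ERAP1+/- (red), with exact binomial 95% intervals. The share of Fosb is 7.67% and 3.18% and that of Gadd45b 30.9% and 16.6%, while Fosl2, Egr1 and Gadd45a take larger shares in the library labelled ERAP1+/-.

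Other genes of the response were read from lists of pathway neighbours. Each count of calls below is to be read beside the 3.96% of all genes past the level that were lower by more than 2-fold. A single call in a short list says little against that share. Among 26 further immediate-early transcription regulators, 16 passed the level of 4 and 1, Ier3, was lower by more than 2-fold. Ier3, which modulates ERK and NF-kB signalling, had 461 and 245 reads, a log2 difference of -1.14. Of the 25 with at least 10 reads, 20 were lower and 5 higher, with a median of -0.65, beside 0.00 over all 16142 genes with that many reads. Klf4, a factor of surface epithelium, had by far the most reads of the list, 20240 and 15474 (ratio 0.639, 0.625 to 0.652). Srf, which itself drives many of these genes, had 1366 and 977 reads (ratio 0.597, 0.550 to 0.649). Of 24 other AP-1 and bZIP genes, 18 passed the level and Creb5 was called lower (185 and 91 reads), with a median of -0.33 over 23 genes.

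Among the pathway lists other than the 10 genes, feedback regulators had the most calls. Of 24, 18 passed the level and 7 of these were lower by more than 2-fold, beside 3.96% of all genes past the level, with none higher and a median of -0.35. Ppp1r15a, which restarts translation after stress, had 198 and 80 reads, a log2 difference of -1.46. Errfi1, an inhibitor of the EGF receptor, had 457 and 202 (-1.40). Trib1, a pseudokinase, had 3453 and 1666 (-1.31), and Nfkbiz, an atypical IkB protein, 537 and 253 (-1.31). Plk3 (222 and 111 reads), Zfp36, which destabilises AU-rich mRNAs (325 and 170), and Rhob (2285 and 1252) were the others. The classical NF-kB inhibitor Nfkbia had 3040 and 3679 reads and a ratio of 1.01 (0.963 to 1.06), and Spry2, an ERK inhibitor, 463 and 532 (0.960, 0.846 to 1.09). These genes of the list were not lower together with the others.

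Dusp6, the ERK-specific phosphatase, was the only 1 of 3 other MAP kinase phosphatases past the level that was called, with 1729 and 912 reads and a log2 difference of -1.17. With the less abundant ones, 10 of 11 were lower and the median was -0.61. Among the secreted early genes, 2 of 6 past the level were called, both ligands of the EGF receptor: Hbegf had 1113 and 288 reads (ratio 0.216, 0.189 to 0.246) and Areg 659 and 249 (ratio 0.316, 0.272 to 0.366). A further ligand, Ereg, had 102 and 94 reads (0.770, 0.575 to 1.03). Other secreted early genes were higher in the library labelled ERAP1+/-, among them Ccn2 (433 and 907 reads, 1.75, 1.56 to 1.97) and Il1b (9 and 37 reads), so that 7 of the 14 genes with at least 10 reads were lower and 7 higher.

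The kinases and factors upstream had no call among 21 past the level and a median of -0.08, and the genes with the most reads, Mapk3 and Map2k3, had ratios of 0.937 (0.889 to 0.988) and 0.679 (0.629 to 0.734). A list of heat shock genes, which also holds chaperones made without stress such as Hsp90ab1, Hspa8 and Hspa5, had no call among 13 past the level. Its median was 0.11, with 6 genes lower and 8 higher, so it does not describe the stress-induced genes alone. The 6 lower genes were Hspa1a, Hspa1b, Hspb1, Dnaja1, Bag3 and Cryab. Hsp90ab1, with the most reads of the list, had 13940 and 19647 reads, a ratio of 1.18 (1.15 to 1.20), and Hspa5 had 5007 and 6657 (1.11, 1.07 to 1.15). Hspa1b, a stress-induced Hsp70, had 218 and 155 (0.594, 0.480 to 0.733).

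**Figure D5:**
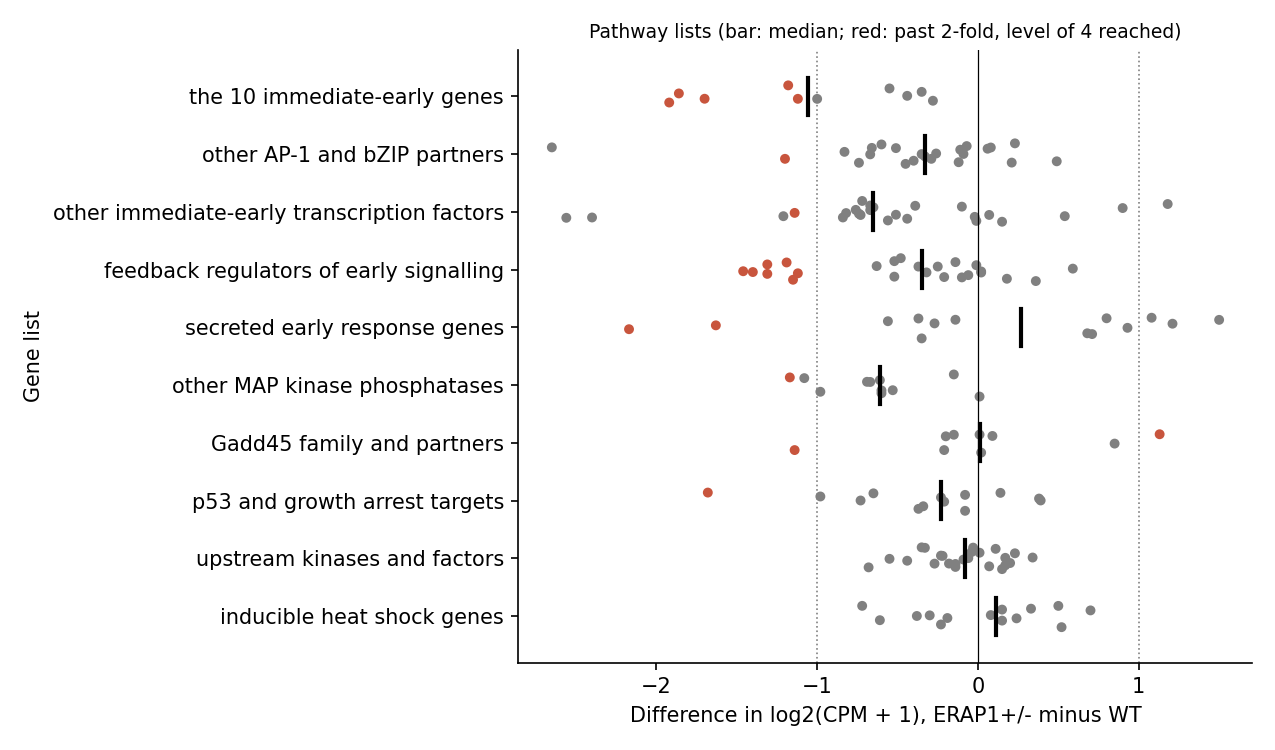
Difference in log2(CPM + 1), ERAP1+/- minus WT, for each gene with at least 10 reads over both libraries in 10 lists; bars are medians, red marks genes past 2-fold that reached the level of 4, and vertical position within a list is arbitrary. The 10 immediate-early genes lie left of 0 with a median of -1.06. The upstream kinases and the heat shock list lie around 0, with medians of -0.08 and 0.11. The heat shock list, labelled inducible in the figure, also holds chaperones made without stress.

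The libraries also differed in their mix of tissues, and in bulk RNA fewer cells of a type and less RNA per cell cannot be told apart. The 18 epidermis markers summed to 3758 CPM in WT and 46.3 in ERAP1+/-, with 5 of them at 0 reads in the latter, and Krt10 had 3922 and 72 reads. The 18 skeletal muscle markers summed to 1406 and 23.4 CPM, with 2 at 0 in the library labelled ERAP1+/-. All 12 smooth muscle markers were lower, 4 by more than 2-fold, with sums of 13024 and 6514 CPM and a median of -0.91. The 18 colon epithelium markers all had reads in both libraries and summed to 20761 and 20051 CPM, although Krt20 and Car4, of the crypt surface, were lower by more than 2-fold and Muc2, of goblet cells, was higher. B and plasma cell markers summed to 399 and 2024 CPM. The median of the 10 genes was -1.06 when epidermis and skeletal muscle markers were left out of the scaling. Whether these tissues carried reads of the 10 genes was not tested. Xist, read from the inactive X chromosome, had 1635 and 6451 reads, and Ddx3y on the Y chromosome 319 and 29, and the sexes of the pooled mice cannot be told apart from genotype.

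The genes share a compact structure that the choice of members did not use. By their principal GENCODE M21 transcripts, 9 of the 10 have at most 4 exons, against 18.2% of 7653 protein-coding genes past the level, and Jun, Junb and Ier2 have 1. Nr4a1, with 8 exons, is the exception. The median span of these transcripts was 3286 bases, against 24489. ATTTA, the core of AU-rich elements that mark mRNAs for rapid decay, occurs in the 3' untranslated region of 8 of the 10, a share close to the 68.6% of the same protein-coding genes. It occurs 4 times each in Fos, Jun and Dusp1 and is missing from Ier2 and Gadd45b. Per kilobase of 3' untranslated region, the 10 genes held 2.39 and the other set 1.86.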

How the data were processed

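Intestinal RNA of 3 untreated mice was pooled for each genotype, giving 1 QuantSeq 3' library for WT and 1 for ERAP1+/-. The deposited values are raw counts by gene symbol, all of them whole numbers. The methods name STAR with HTSeq-count as well as Bowtie2 with RSEM, the submitters' processing notes name the latter with GRCm38, and which made these counts is not given in the sources used here. Depth was 8114826 and 8907515 reads, and a count of 0 allows up to 3 reads (0.386 and 0.322 CPM).

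The sums of reads were scaled by TMM (edgeR 4.0.16, R 4.3.3), a pseudocount of 1 was added to CPM, and the whole table of genes was compared. With 1 library per genotype, edgeR's tests could not be fitted. Ratios carry exact conditional binomial 95% intervals, levels exact Poisson intervals and shares exact binomial (Clopper-Pearson) intervals (scipy 1.17.1). These cover counting error only and take each read as an independent molecule. Reads without molecular identifiers are not independent molecules, so the intervals may be too narrow even for that error. The calculations were tested on simulated Poisson counts, without spread between mice or duplicate reads. That is the error the intervals assume, so the test does not bear on whether they are wide enough for these data. Lists needed at least 10 reads over both libraries. Promoters are from RefSeq on GRCm38.p6, and gene positions and transcripts from GENCODE M21 on GRCm38 (APPRIS principal transcript).

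The 10 genes and all lists were chosen with earlier results of these data known. Named were the 10 genes, the called genes of each pathway list or, without a call, the 2 with most reads, and the 5 genes nearest to Gadd45b. Other family and list members were named after their values were seen, as was the core of the CRE. Alternatives were DESeq2 1.42.0 size factors, total count, upper quartile, reference genes, other filters, pseudocount and fold, thinning, and fewer features.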

Additional observations from a re-analysis of the deposited data

How the results depend on the processing

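The 5 members called stayed 5 with DESeq2 size factors, upper quartile scaling, no filter, a minimum of 10 reads in 1 library, thinning of the deeper library, and without mitochondrial and ribosomal RNA. Junb made them 6 with reference gene scaling and with a pseudocount of 0.1. They were 3 (Fos, Egr1 and Atf3) when log2(CPM + 1) had to reach 6, since Fosb and Gadd45b lie below it, and 0 with a 4-fold threshold. The median of the members was -0.93 with the total count, which moved the median of all genes by 0.122, and between -1.08 and -1.03 otherwise. Of the 10 members' differences, Jun (-0.42) and Junb (-0.87) moved beyond their counting interval with the total count, and none of the 10 changed sign under the 6 settings tried for each. Leaving out epidermis and skeletal muscle markers for the counts of calls, and thinning for the count over all genes, were chosen after seeing the data. The former left 5 members called, but it changes only the scaling and not the reads of the 10 genes. It therefore does not address whether those tissues carried reads of these genes.

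Over all genes, 428 were called. The number was 1434 with no filter, 1390 with at least 10 reads in 1 library, 160 with log2(CPM + 1) of at least 6, rules that admit other numbers of genes, and 160 with a 4-fold threshold, which asks for a larger difference. No paired analysis was possible because there is only 1 library of each genotype. Depth limits the ratios of rare family members such as Egr2, Egr3 and Fosl1, with 3, 9 and 4 reads in the library labelled ERAP1+/-.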

Other observations

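Stress and timing genes were read in the same way, with calls set beside the same 3.96% of all genes past the level. Some stand in the lists above as well. Per1, Nfil3, Bhlhe40 and Btg2 are also among the further immediate-early regulators, and Plk2 among the feedback regulators. Of 14 p53 and growth arrest targets, 8 passed the level of 4 and 1 was lower by more than 2-fold: Pmaip1, a BH3-only inducer of apoptosis, had 476 WT and 171 reads labelled ERAP1+/-, 3.33-fold lower (95% counting interval 2.79 to 3.99). Cdkn1a, the p53 target with the most reads, had 4000 and 4128 reads and a ratio of 0.862 (0.825 to 0.901). Mdm2 had 352 and 398 (0.944, 0.816 to 1.09). Over the 13 genes of the list with at least 10 reads, the median was -0.23, beside 0.00 over all genes with that many reads.

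Clock genes are of interest beside immediate-early genes because Per1 is also induced by acute signals. Of 17 clock and clock output genes, 11 passed the level and 2, Cry1 (226 and 130 reads) and Cry2 (224 and 91 reads), were lower by more than 2-fold. The median was -0.67, with 15 of 17 lower. Per1 had 234 and 172 reads, a ratio of 0.614 (0.501 to 0.751), and Per2 283 and 197 (1.72-fold lower, 1.43 to 2.07). Nr1d1 was the other way, with 272 and 406 reads (1.25, 1.07 to 1.46), and Dbp had 193 and 234 (1.01, 0.833 to 1.23).

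Of the other markers, those of fibroblasts (median -0.14) and endothelium (0.07) were near 0, and those of enteric neurons and glia had a median of 0.41. T and NK cell markers had at least 10 reads for 5 of 12 genes (median 0.65). Myeloid and granulocyte markers had a median of 0.69, with S100a8 and S100a9 higher and Ly6g lower by more than 2-fold. Ly6g had 2867 and 1367 reads, while the granulocyte genes Csf3r (1 and 5) and Mpo (0 and 1) had almost none. Whether the Ly6g reads came from granulocytes was not tested. In the Gadd45 list, Gadd45g was the single gene called lower, and Cdk1, a kinase that Gadd45 proteins can inhibit, the single gene called higher, with 184 and 494 reads (2.24, 1.89 to 2.67).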
